A study of Homo sapiens with 6 samples.

Results

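The genes described are 10 that build or line the extracellular matrix: fibronectin (FN1), 5 collagen chain genes (COL1A1, COL4A1, COL4A2, COL5A1 and COL17A1) and 4 genes of adhesive and matricellular glycoproteins (THBS1, TGFBI, SPARC and TNC). They were chosen by name, and each symbol matched 1 of the 58302 Ensembl genes in the count data. RNA was sequenced from cells labelled MDA-MB-231, a line from a triple-negative breast cancer, that stably expressed either a control shRNA (3 libraries, repeats 1 to 3) or Smyca shRNA #1 (3 libraries, repeats 1 to 3). Smyca is a nuclear lncRNA that the study links to TGF-β/Smad signaling and to EMT, and the comparison asks what changes in the transcriptome when it is depleted. The target of the control shRNA is not given in the labels, both groups grew in serum-containing medium, and the labels name no added ligand. The knockdown rests on 1 shRNA. The study calls the libraries of a group biological repeats, and the labels do not name separate cultures, so the p-values measure the spread between these libraries.

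The extracellular matrix is the protein network outside cells, and cells bind it through integrins and other receptors. Fibrillar collagens such as type I and type V give it strength, type IV collagen forms the sheets of the basement membrane, and fibronectin assembles into fibrils on which collagens are deposited. Matricellular proteins such as thrombospondin 1, SPARC and tenascin-C lie in the matrix but act mostly by modulating adhesion, growth factors and remodelling. TGF-β is a well-known inducer of many of these genes, and fibronectin is a standard marker of the mesenchymal state.

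Promoter sequence is shown for 3 members that vary widely between libraries and for the type IV collagen pair, because TGF-β reaches such genes through Smad complexes at promoters and because COL4A1 and COL4A2 are transcribed away from each other from a shared stretch of DNA. The windows hold the 250 bases before the RefSeq start of each gene (RefSeq, GRCh38.p14), written on the strand of the gene. Capitals mark matches to CAGAC (the Smad box), TGACGTCA (the cAMP response element) and GGGCGG (the GC box bound by Sp1), on either strand.
FN1, chr2:215436069-215436318, minus strand: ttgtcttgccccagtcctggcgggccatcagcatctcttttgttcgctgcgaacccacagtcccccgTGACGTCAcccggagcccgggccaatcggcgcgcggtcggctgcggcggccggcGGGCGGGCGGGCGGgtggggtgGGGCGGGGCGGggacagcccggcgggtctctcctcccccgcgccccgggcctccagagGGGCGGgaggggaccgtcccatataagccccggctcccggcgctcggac
THBS1, chr15:39580829-39581078, plus strand: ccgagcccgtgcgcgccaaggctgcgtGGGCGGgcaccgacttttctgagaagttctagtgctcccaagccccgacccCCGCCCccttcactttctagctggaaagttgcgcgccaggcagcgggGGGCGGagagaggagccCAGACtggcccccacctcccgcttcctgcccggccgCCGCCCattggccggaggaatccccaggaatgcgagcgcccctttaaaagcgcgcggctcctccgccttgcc
TNC, chr9:115118158-115118407, minus strand: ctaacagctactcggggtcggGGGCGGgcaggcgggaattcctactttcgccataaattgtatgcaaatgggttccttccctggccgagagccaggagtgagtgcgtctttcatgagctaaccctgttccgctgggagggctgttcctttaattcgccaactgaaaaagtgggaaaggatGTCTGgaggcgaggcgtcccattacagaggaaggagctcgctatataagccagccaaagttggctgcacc
COL4A1 and COL4A2, the bases between their starts, chr13:110307158-110307283, plus strand: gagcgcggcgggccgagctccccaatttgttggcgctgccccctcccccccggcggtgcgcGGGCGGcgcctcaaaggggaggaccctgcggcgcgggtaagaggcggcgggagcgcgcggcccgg

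The Smad box was present once in the THBS1 window, ending 103 bases before the start, and once in the TNC window, ending 65 bases before it, and these 5 letters occur in 37.8% of 27305 RefSeq promoter windows of the same length. The cAMP response element was found in FN1, 175 bases before the start, and in 1.77% of all windows. FN1 also had 6 GC boxes, some of which overlap each other, against a share of 42.3% of windows with at least 1. The AP-1 letters TGANTCA were found in 0 of the 9 member windows (6.60% of all windows) and the HIF core ACGTG in 1, COL5A1 (18.7% of all windows). The COL17A1 and SPARC windows held 0 of the 5 motifs, and the COL17A1 window was the lowest in GC content, 40.4% against 77.6% and 78.8% in the windows of COL4A1 and COL4A2. COL1A1 has no entry in the promoter table. A match is a run of letters only, and no binding was measured here.

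The libraries held 14999307 to 16501085 counts each. Smyca itself, counted as MIR23AHG, averaged 22.2 ± 2.75 normalized CPM with control shRNA and 7.69 ± 2.51 with Smyca shRNA (SD, n = 3 each), with no overlap (log2 fold change 1.53, SE 0.26, adjusted p = 0.111). Normalized CPM (the usual unit of counts relative to library size) use libraries scaled by edgeR's TMM method, and log2 fold changes are control over knockdown, so that positive values are higher in the control. SE is the standard error of that log2 value. The FPKM values deposited for control repeat 2 do not follow its counts, and the reads behind them correlate with the counts of control repeat 3 at 0.998 and with its own at 0.989 (Pearson r of log2 CPM, across genes). All 7 mesenchymal markers listed for MDA-MB-231 cells were counted, with summed levels of 640 to 1373 CPM in control libraries and 661 to 1005 after knockdown, most of it MSN (log2 fold change 0.04). All 7 had a positive log2 fold change, as did 8047 of 15075 genes tested, and their median was 0.94. An unadjusted p under 0.05 was reached by 5, against 19.2% of all genes and 10.4% in that direction. Control repeat 3 had the lowest sum of the 6 libraries. Genes of other epithelia were also abundant, and among 12 intestinal and hepatic markers, summed levels were 329 to 573 CPM in control libraries and 680 to 806 after knockdown, most of it VIL1 and HNF4A. KRT8, an epithelial keratin, lay above VIM, which encodes the mesenchymal filament vimentin, in each library, at 4249 to 7408 against 71.2 to 305 CPM. The epithelial adhesion genes EPCAM and CDH1 were at 236 to 336 and 71.5 to 300 CPM. KRT8, EPCAM and CDH1 belong to a list of 9 luminal and epithelial breast markers. Of these, KRT18 and KRT19 were also high, at 987 to 1379 and 850 to 1957 CPM. GATA3 was at 1.25 to 3.86 CPM, and 3 had at most 5 counts in any library, ESR1 and FOXA1 among them. The levels of the high epithelial genes put the labelled identity of the cells in question, and it was not tested by other means. Of 8 fibroblast markers, POSTN and FAP had 0 counts, and DCN, COL3A1 and PDGFRA at most 2 counts in any library, while LUM, THY1 and PDGFRB had 12 to 152. The 8 summed to 3.59 to 19.7 CPM in control libraries and 4.13 to 7.66 after knockdown, and the log2 fold changes of the 3 tested were 0.65, 1.98 and 0.05 (adjusted p = 0.583, 0.141 and 0.968). The part of this marker profile in the results was not tested, and in bulk RNA fewer expressing cells cannot be told apart from less RNA per cell.

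With the study's criteria for a DEG (a ratio from 1.5 upwards or from 0.66 downwards with an adjusted p under 0.05), 0 of the 8 members with enough counts to be tested were DEGs in edgeR's quasi-likelihood fit, with p-values adjusted by Benjamini-Hochberg over the 15075 genes tested, of which 0.0265% were. The ratio alone was passed by 4 of the 8, all higher in the control (TNC, COL17A1, COL1A1 and FN1), against 21.2% of all genes tested, 15.6% in that direction and 5.54% in the other. With any 1 library left out, 3 or 4 members passed it higher and 1 passed it lower, so that a single direction holds for the 6 libraries together. An unadjusted p under 0.05 was reached by 2, COL1A1 and COL17A1, against 19.2% of all genes, 10.4% in that direction and 8.74% in the other. The groups did not overlap in 2 members, COL1A1 (higher in the control) and TGFBI (lower), against 24.8% of all genes, 12.4% and 12.5% in the 2 directions. Their median log2 fold change was 0.33, beside 0.036 over all genes tested. With 8 genes these shares are a description. COL5A1 and SPARC had too few counts to be tested. With DESeq2's Wald test 1 member was a DEG, against 5.64% of all genes, and 2 had an unadjusted p under 0.05, against 19.5%.

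**Figure D1:**
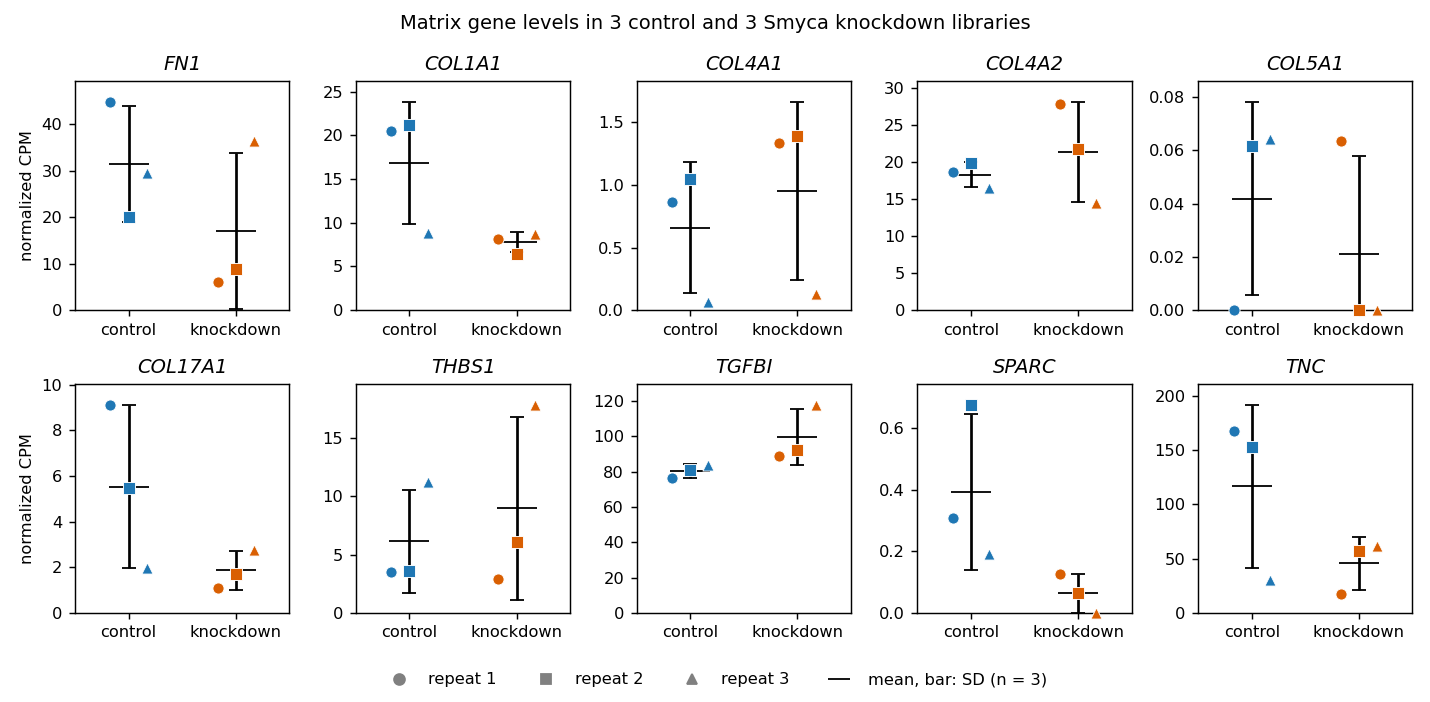
Normalized CPM (vertical axes, each starting at 0) of the 10 matrix genes in the 3 control and 3 Smyca knockdown libraries. Each symbol is 1 library, its shape gives the repeat number, and the horizontal line with its bar is the mean ± SD (n = 3). In TNC, COL17A1 and COL1A1, control repeats 1 and 2 stand above the other 4 libraries, while control repeat 3 lies among or next to the knockdown.

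FN1 encodes fibronectin, the glycoprotein that integrins assemble into fibrils. The gene (ENSG00000115414) lies on chr2:215360440-215436073, minus strand, and its canonical transcript has 46 exons. FN1 was at 44.8, 20.1 and 29.4 normalized CPM in control repeats 1 to 3 and at 6.10, 8.81 and 36.4 in knockdown repeats 1 to 3. Knockdown repeats 1 and 2 were below each control library, but knockdown repeat 3 was above control repeats 2 and 3, so that the groups overlapped. The log2 fold change was 0.88 (SE 0.61, adjusted p = 0.458). The value depends on single libraries. It was 2.06 without knockdown repeat 3 (adjusted p = 0.115), and 0.47, 0.54 and 0.56, under the ratio criterion, without knockdown repeat 1, control repeat 1 and knockdown repeat 2, in a range of adjusted p from 0.115 to 0.781 over the alternatives. MIR23AHG was at 5.61 CPM in the knockdown library where it was lowest, and its relation to FN1 across libraries was not tested.

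COL1A1 encodes the alpha 1 chain of type I collagen, the main collagen of connective tissue (ENSG00000108821, chr17:50184101-50201632, minus strand). Its counts gave 20.5, 21.2 and 8.84 normalized CPM with control shRNA and 8.19, 6.46 and 8.72 with Smyca shRNA. Control repeats 1 and 2 were well above the knockdown, while control repeat 3 lay only just above its highest library. The reads behind the FPKM values of control repeat 2 hold 188 for COL1A1 in place of 345, which gives a log2 fold change of 0.77 (adjusted p = 0.243). The means were 16.9 ± 6.97 and 7.79 ± 1.18 (SD, n = 3 each), a ratio of 2.17 and a log2 fold change of 1.11 (SE 0.34, adjusted p = 0.147). COL1A2, whose chain joins that of COL1A1 in the usual heterotrimer of type I collagen, had 2 counts in control repeat 2 and 0 in the other 5 libraries, where 3 counts, the limit that a count of 0 allows, would be 0.185 to 0.198 CPM. COL3A1, the fibrillar collagen that often accompanies type I, had 3 counts in all.

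COL5A1 encodes a chain of type V collagen, which nucleates type I fibrils (ENSG00000130635, chr9:134641803-134844843, plus strand). It had at most 1 count in any library and 3 in all, so that no difference was detectable at this depth. Its partner chains were also low. COL5A2 had 4 to 23 counts per library and a log2 fold change of 0.17 (SE 0.68, adjusted p = 0.913). COL5A3 had 25 counts over the 3 control and 4 over the 3 knockdown libraries, a ratio of 6.07 with an exact 95% counting interval of 2.10 to 24.0, which covers counting error only.

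COL17A1 encodes a transmembrane collagen of the hemidesmosome, which ties epithelial cells to the basement membrane (ENSG00000065618, chr10:104031286-104085880, minus strand). It was at 9.13, 5.48 and 1.99 normalized CPM with control shRNA and at 1.08, 1.71 and 2.77 with Smyca shRNA. Control repeat 3 lay inside the knockdown range. The log2 fold change of 1.58 (SE 0.57, adjusted p = 0.191) was the largest of the 8 members tested, a ratio of 2.98, and 97.6% of all genes tested had a smaller one in size. By its counts, this epithelial gene had its highest levels in the same libraries as COL1A1, control repeats 1 and 2. The reads behind the FPKM values of control repeat 2 hold 44 for COL17A1 in place of 89, and with them the log2 fold change was 1.28 (adjusted p = 0.301).

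COL4A1 and COL4A2 encode the chains that form the common heterotrimer of type IV collagen in basement membranes. The genes (ENSG00000187498, chr13:110148963-110307157, minus strand, and ENSG00000134871, chr13:110305812-110513209, plus strand) run head to head. Their canonical starts are 126 bases apart, and the annotated spans overlap by 1346 bases. The strand setting of the counting is not stated, so reads in that overlap cannot be assigned with certainty. COL4A2 was at 18.6, 19.9 and 16.5 normalized CPM with control shRNA and at 27.9, 21.8 and 14.4 with Smyca shRNA. Knockdown repeat 1 was the highest and knockdown repeat 3 the lowest, so that the control lay inside the knockdown range (log2 fold change -0.22, SE 0.25, adjusted p = 0.650).

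COL4A1 was far lower, with 14, 17 and 1 counts in the control and 21, 22 and 2 in the knockdown. Both repeats numbered 3 were at the limit of detection, while the other 4 libraries had 14 to 22 counts. The log2 fold change was -0.53 (SE 0.89, adjusted p = 0.773), and it ranged from -1.04 without knockdown repeat 3 to -0.01 without control repeat 3. The reads behind the FPKM values of control repeat 2 hold 1 for COL4A1 in place of 17, so that the pattern by repeat number rests on its counts, and with them the log2 fold change was -1.54 (adjusted p = 0.435). Per kilobase of canonical transcript, COL4A2 averaged 3.08 normalized CPM and COL4A1 0.123. As background, the heterotrimer takes more COL4A1 than COL4A2 chains. Within a library, COL4A2 had 15.6 to 21.5 times the counts of COL4A1 in repeats 1 and 2 of both groups. The ratio was 257 in control repeat 3 and 109 in knockdown repeat 3, where COL4A1 had 1 and 2 counts. The mean log2 ratio was 5.56 ± 2.12 with control shRNA and 5.04 ± 1.51 with Smyca shRNA (SD, n = 3 each). With 3 against 3 libraries an exact permutation test cannot go below p = 0.1 and so cannot show a difference at 0.05 (two-sided p = 0.6). The difference of 0.52 turned to -0.70 without control repeat 3 and to -0.017 without knockdown repeat 2. It was 1.86 with the reads behind the FPKM values of control repeat 2 (exact permutation test, p = 0.2).

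THBS1 encodes thrombospondin 1, a matricellular protein that can release active TGF-β from its latent complex (ENSG00000137801, chr15:39581079-39599466, plus strand). It was at 3.52, 3.63 and 11.3 normalized CPM with control shRNA and at 2.92, 6.08 and 17.9 with Smyca shRNA. The highest library of each group was repeat 3, and the groups overlapped. The log2 fold change of -0.55 (SE 0.68, adjusted p = 0.690) became 0.44 without knockdown repeat 3 and -1.33 without control repeat 3, so that its direction depends on 1 library. THBS1 and COL4A1 were opposite in this respect, with THBS1 high and COL4A1 near 0 in both repeats numbered 3. The reads behind the FPKM values of control repeat 2 hold 161 for THBS1 in place of 59, which gives a log2 fold change of -0.16 (adjusted p = 0.911) and makes control repeat 2 high as well.

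TGFBI encodes a secreted adhesive protein named for its induction by TGF-β (ENSG00000120708, chr5:136028988-136063818, plus strand). It was at 76.4, 81.0 and 83.8 normalized CPM with control shRNA and at 89.0, 92.2 and 118 with Smyca shRNA. Every knockdown library was above every control library, yet the difference was small, at -0.31 on the log2 scale (SE 0.16, adjusted p = 0.313), a knockdown level 1.24 times the control. Without knockdown repeat 3 it was -0.18. The SD was 4.66% of the mean in the control and 16.0% in the knockdown, and the highest library was 1.55 times the lowest. Per kilobase of transcript it was also the most abundant, and it was the 1 member above the next in all 6 libraries with no overlap of their ranges.

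SPARC encodes a collagen-binding matricellular protein that is abundant in fibroblasts and bone (ENSG00000113140, chr5:151661096-151686975, minus strand). It had 5, 11 and 3 counts in the control and 2, 1 and 0 in the knockdown. The groups did not overlap, but at 22 counts in all the gene was not tested. The pooled counts of 19 and 3 gave a ratio of 6.15 with an exact 95% counting interval of 1.81 to 32.4, which takes no account of the spread between libraries. The reads behind the FPKM values of control repeat 2 hold 3 for SPARC in place of 11, and with them the ratio was 3.47 (0.916 to 19.4), an interval that includes 1. All 3 counts of the knockdown together equal the limit that a count of 0 allows in 1 library.

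TNC encodes tenascin-C, a matricellular protein of embryonic, wounded and tumor tissue (ENSG00000041982, chr9:115019575-115118207, minus strand). It was at 167, 152 and 30.0 normalized CPM with control shRNA and at 17.7, 57.1 and 61.5 with Smyca shRNA. Control repeats 1 and 2 were more than 2 times the highest knockdown library, whereas control repeat 3 was below knockdown repeats 2 and 3. The means were 117 ± 75.3 and 45.4 ± 24.2 (SD, n = 3 each), a ratio of 2.57 and a log2 fold change of 1.36 (SE 0.63, adjusted p = 0.281). Its highest library was 9.48 times its lowest, against 21.8 for the low COL4A1, 8.46 for COL17A1, 7.35 for FN1 and 1.55 for TGFBI. With the reads behind the FPKM values of control repeat 2, in which TNC has 520 in place of 2478, the log2 fold change was 0.72 (adjusted p = 0.609).

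**Figure D2:**
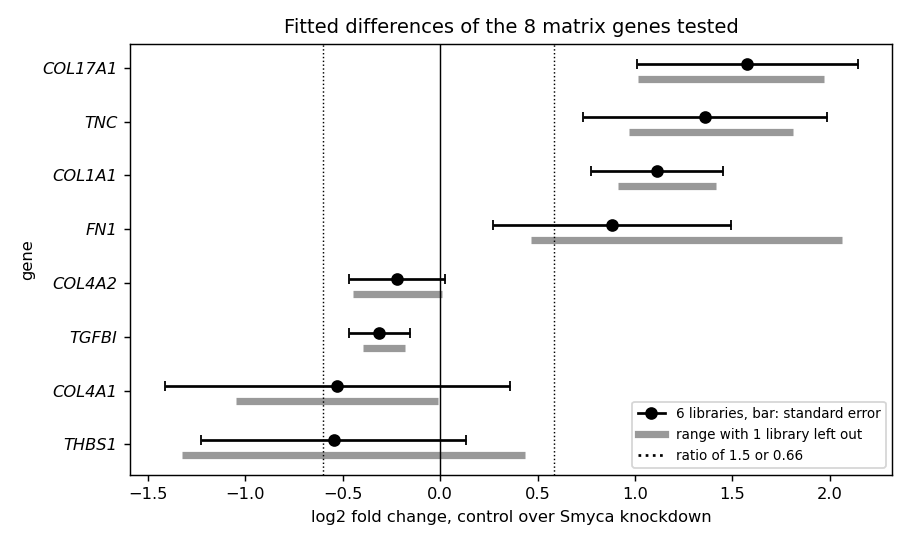
Log2 fold change, control over Smyca knockdown (horizontal axis), of the 8 members tested (vertical axis). Points are the fit of 6 libraries with their standard error, grey bars are the range when 1 library is left out, and dotted lines are ratios of 1.5 and 0.66. COL17A1, TNC, COL1A1 and FN1 lie to the right of 0 throughout, TGFBI and COL4A1 to the left, and the bars of THBS1 and COL4A2 cross 0.

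Leaving out control repeat 3 took TNC, COL17A1 and COL1A1 past the threshold. Without it the log2 fold changes were 1.81, 1.97 and 1.42, with adjusted p-values of 0.0326, 0.0230 and 0.00782 by edgeR's quasi-likelihood test, and all 3 were DEGs, 3 of 8 members against 10.5% of all genes. Over the alternatives the adjusted p ranged from 0.0259 to 0.609 for TNC, from 0.0230 to 0.522 for COL17A1 and from 0.00782 to 0.455 for COL1A1. Over all genes, 1628 were DEGs without this library and 4 with it. The sum of 10 hypoxia-inducible genes, a list chosen with earlier results known, was also highest in control repeats 1 and 2. Their summed level was 1982, 1042 and 440 CPM in control repeats 1 to 3 and 409, 270 and 377 in the knockdown, so that control repeat 3 was again next to the knockdown. All 10 had a positive log2 fold change, beside 8047 of 15075 genes tested, but their patterns differed. BNIP3 was highest in control repeat 3 (3.27 CPM). CA9 in that library (67.4 CPM) was below each knockdown library (88.3 to 134 CPM). The part of this list in the differences of TNC, COL17A1 and COL1A1 was not tested.

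**Figure D3:**
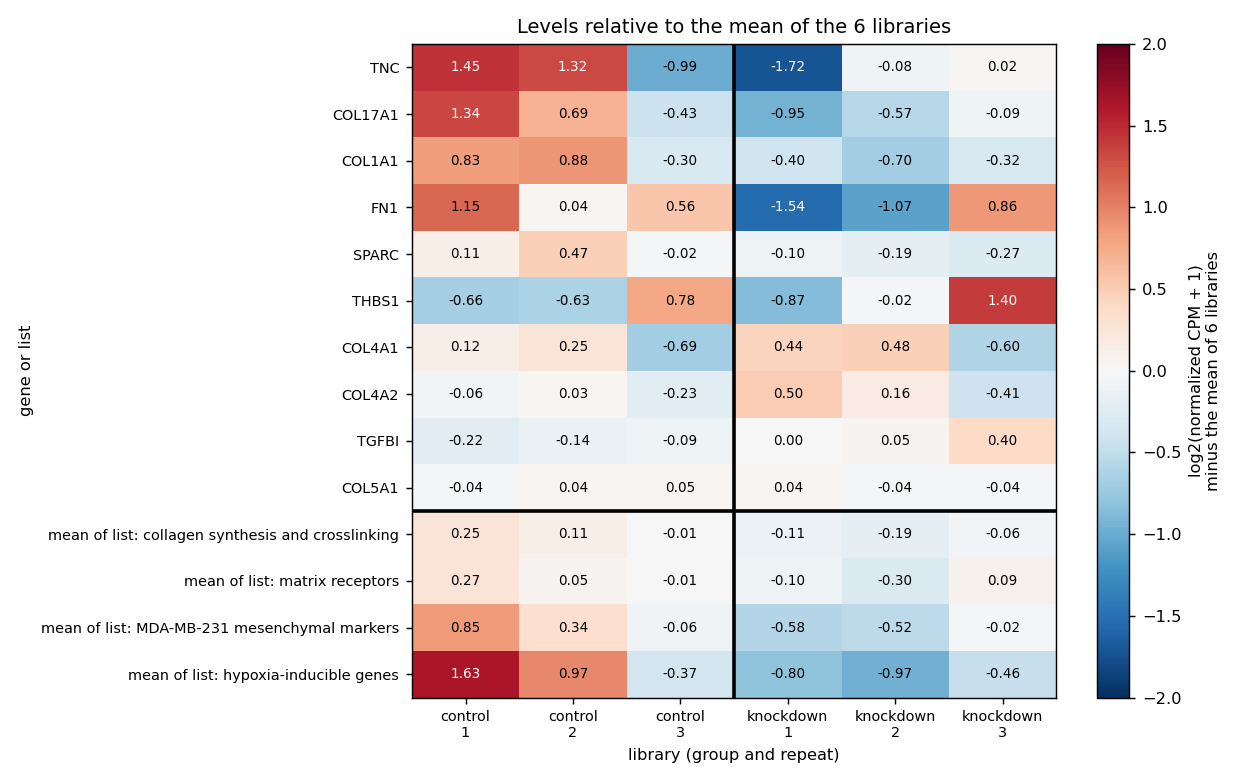
Log2(normalized CPM + 1) of the 10 members, and the mean of 4 gene lists, in each library (columns) relative to the mean of the 6 libraries. Red is higher and blue lower. TNC, COL17A1 and COL1A1 share the pattern of the mean of the hypoxia-inducible list, with control repeats 1 and 2 above 0 and the other libraries at or near 0 or below, while THBS1 and COL4A1 follow repeat 3 of both groups in opposite directions.

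The order of levels per kilobase of canonical transcript was TGFBI (33.2 normalized CPM, mean of 6 libraries), TNC (9.53), COL4A2 (3.08), FN1 (2.89), COL1A1 (2.08), THBS1 (0.970), COL17A1 (0.658), COL4A1 (0.123), SPARC (0.0661) and COL5A1 (0.00373). Apart from TGFBI over TNC, the ranges of neighbours in this order overlapped. COL4A2 was above FN1, and FN1 above COL1A1, in 3 of 6 libraries each, so that neither pair has an order. TNC was above COL4A2 in 5 of 6. Of all tested genes, the one whose profile over the 6 libraries was nearest to TNC was PFKFB4, a hypoxia-inducible glycolytic regulator, at a root mean square difference of 0.37 on the log2 scale against a spread of 1.14 for TNC itself. PFKFB4 is itself 1 of the 10 genes of the hypoxia-inducible list, and its difference was the largest of these nearest matches. The same measure gave TCAF2 for COL17A1 (0.087) and ADCY4 for COL1A1 (0.11), both outside that list. It gave RAB20 for COL4A1 (0.12), MITF for THBS1 (0.27), PWWP3B for FN1 (0.28), CTAGE7P for COL4A2 (0.047) and SMARCA5 for TGFBI (0.029). COL4A1 ranked 1803 of 15074 genes in nearness to COL4A2, and COL4A2 ranked 162 in nearness to COL4A1. The 6 points of a profile are the libraries compared above, and a near profile is a description only.

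The full list of collagen chains shows where COL1A1, COL17A1 and the type IV pair stand. Of 44 collagen chain genes, 19 were tested and 7 had 0 counts in each library. The 19 include COL1A1, COL17A1, COL4A1 and COL4A2, so that the list is not independent of these members. The median log2 fold change of the 19 was 0.64, and 16 were higher in the control, beside 8047 of the 15075 genes tested in all. An unadjusted p under 0.05 was reached by 6, COL1A1 and COL17A1 among them. All 6 were higher in the control, against 19.2% of all genes and 10.4% in that direction. None of the 19 was a DEG by edgeR's quasi-likelihood test, while 2 were with DESeq2's Wald test (5.64% of all genes) and 6 of 20 with edgeR without control repeat 3 (10.5% of all genes). The most abundant chains were COL18A1, a basement membrane collagen and the source of endostatin, and COL6A1, a chain of the beaded type VI filament, at 62.9 and 41.3 normalized CPM per kilobase of transcript. Their log2 fold changes were -0.0082 (SE 0.14, adjusted p = 0.979) and 0.28 (SE 0.17, adjusted p = 0.416).

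Among collagens outside the members with an unadjusted p under 0.05, COL7A1, COL20A1 and COL6A3 had the largest differences. COL7A1, whose product anchors the basement membrane to the tissue below it, was at 150, 121 and 43.6 normalized CPM with control shRNA and 27.4, 30.9 and 25.2 with Smyca shRNA, with no overlap (log2 fold change 1.91, SE 0.39, adjusted p = 0.111). It too was lowest in repeat 3 within the control. COL20A1 and COL6A3 had log2 fold changes of 1.88 and 1.67 (adjusted p = 0.196 and 0.206) at 4 to 41 and 1 to 23 counts per library.

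**Figure D4:**
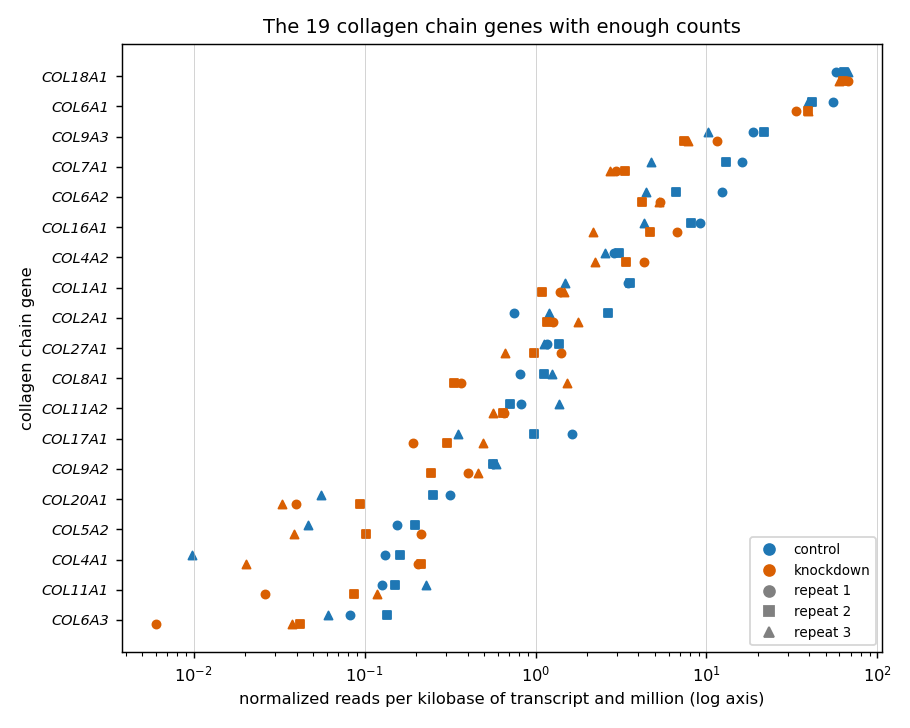
Normalized CPM per kilobase of canonical transcript (horizontal log axis) of the 19 collagen chain genes tested, 1 symbol per library, with blue for control and orange for knockdown. COL18A1 and COL6A1 lead in both groups, COL1A1 and COL4A2 lie in the middle, and COL4A1 is near the bottom, with both repeats numbered 3 to the left of the other libraries.

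Collagen chains need enzymes to fold and crosslink them. Of 30 such genes, 25 were tested, and 17 were higher in the control, beside 8047 of the 15075 genes tested in all. An unadjusted p under 0.05 was reached by 8 (32%), all higher in the control, against 19.2% of all genes and 10.4% in that direction. The count was 3 of 25 with the reads behind the FPKM values of control repeat 2, where 20.4% of all genes passed, 3 without knockdown repeat 2 and 4 without control repeat 1, without control repeat 2 or with a block for the repeat number. The median log2 fold change over the 25 was 0.22. LOXL2, a lysyl oxidase that crosslinks collagen, was at 28.5, 18.5 and 6.28 normalized CPM with control shRNA and 2.86, 2.53 and 6.07 with Smyca shRNA (log2 fold change 2.22, SE 0.56, adjusted p = 0.124). PCOLCE, which enhances procollagen processing, and P4HA1, a proline hydroxylase subunit and known hypoxia-inducible gene, had 1.62 and 1.35 (adjusted p = 0.143 and 0.158). In all 3, control repeat 3 was the lowest control library. The abundant chaperones P4HB and PPIB differed by 0.25 (SE 0.20) and 0.078 (SE 0.17).

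Among 31 matricellular and adhesive genes, which include FN1, THBS1, TGFBI, SPARC and TNC, 16 were tested, with a median log2 fold change of 0.49, which was 0.27 without control repeat 1 and 0.21 with the reads behind the FPKM values of control repeat 2. An unadjusted p under 0.05 was reached by 3 higher and 2 lower in the control, against 10.4% and 8.74% of all genes. CCN1, a matricellular protein induced by YAP and TGF-β, was at 16.6, 8.43 and 55.1 normalized CPM with control shRNA and 6.03, 5.45 and 6.67 with Smyca shRNA (log2 fold change 2.14, SE 0.60, adjusted p = 0.134). CCN2, of the same family, was at 4.63, 4.12 and 12.9 against 3.62, 2.47 and 2.71 (a ratio of 2.46, adjusted p = 0.191). In both genes control repeat 3 was the highest library, the reverse of its place in TNC, COL17A1 and COL1A1. It was also the highest control library for THBS1. SPOCK2, a proteoglycan related to SPARC, had 1.31 (adjusted p = 0.201). The most abundant genes of the list per kilobase besides TGFBI were FBLN1, a fibulin, and NID1, the basement membrane linker, and both were lower in every control than in every knockdown library, with log2 fold changes of -0.28 and -0.55 (adjusted p = 0.343 and 0.196).

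Among 22 matrix receptor genes, 16 were tested, and 3 higher and 1 lower in the control reached an unadjusted p under 0.05 (median log2 fold change 0.18). These 4 of 16 are 25% of the genes, near the 19.2% of all genes, and the count was 1 without knockdown repeat 2, where 10.8% of all genes passed, and 2 without control repeat 1. ITGA5, the alpha subunit of the main fibronectin receptor, was at 294, 173 and 50.5 normalized CPM with control shRNA and at 61.7, 44.7 and 69.5 with Smyca shRNA (log2 fold change 1.56, SE 0.52, adjusted p = 0.169). Its libraries were ordered like those of TNC at the top, with control repeats 1 and 2 apart from the other 4, and not like those of its ligand FN1. ITGA3, a laminin receptor subunit, and CD44, the hyaluronan receptor, had 0.98 and 0.94 (adjusted p = 0.152 and 0.237). The most abundant receptors, ITGB1 and SDC4, had 0.26 and 0.59 (adjusted p = 0.571 and 0.367).

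Of 28 genes of matrix proteases and their inhibitors, 15 were tested, and 5 reached an unadjusted p under 0.05, all higher in the control (median log2 fold change 0.40), against 10.4% of all genes in that direction. PLAU, the urokinase plasminogen activator, was at 47.9, 32.5 and 23.1 normalized CPM with control shRNA and at 8.85 to 12.6 with Smyca shRNA (log2 fold change 1.67, SE 0.28, adjusted p = 0.111). MMP19, a metalloproteinase, had 1.92 (SE 0.36, adjusted p = 0.111). In both genes the groups did not overlap and control repeat 3 was above each knockdown library, whereas in TNC and COL17A1 it was not. The most abundant genes of the list, TIMP1 and ADAM9, differed by 0.18 (SE 0.14) and 0.031 (SE 0.17).

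In the last 4 lists, 0 genes were DEGs by edgeR's quasi-likelihood test with 6 libraries. DESeq2's Wald test, by which 5.64% of all genes were DEGs, gave 3 for synthesis and crosslinking, 2 for matricellular genes, 1 for receptors and 4 for proteases and inhibitors. Without control repeat 3, edgeR gave 5, 2, 2 and 5 in the same order, and the genes at an unadjusted p under 0.05 numbered 13 of 25, 8 of 16, 6 of 16 and 8 of 15. Over all genes in that fit, 10.5% were DEGs and 29.6% had an unadjusted p under 0.05. The lists rest on the same 6 libraries as the members, so that their counts are not independent of those above.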

How the data were processed

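RNA-seq was analysed in 6 libraries of cells labelled MDA-MB-231, 3 with control shRNA and 3 with Smyca shRNA #1, grouped by the sample labels. The authors removed rRNA, made strand-specific paired-end libraries, aligned the reads with TopHat v2.0.12 (GRCh38) and obtained gene counts from HTSeq. The annotation release is not given in the sources used here. The deposited counts (14999307 to 16501085 per library) were used for all tests. The FPKM values that the authors deposited follow the counts in 5 libraries. In control repeat 2 they do not, and 3357 genes with 0 counts have an FPKM above 0. Whole reads recovered from that column (16759253, all whole within 0.05) were an alternative.

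Symbols came from GENCODE release 44, which matched 57532 of the 58302 identifiers, as did coordinates and canonical transcript lengths. Counts were fitted in R 4.3.3 with edgeR 4.0.16 (TMM, filterByExpr, quasi-likelihood test of control over knockdown, Benjamini-Hochberg over 15075 genes, no covariate). Adjusted p-values are from this fit unless another is named. Standard errors were the log2 fold change over the square root of the F statistic. Profiles used log2(normalized CPM + 1). Alternatives were RLE factors, total counts, a filter of 1 count in all, a filter of 10 counts in each library, DESeq2 1.42.0, the repeat number as a block, and each library left out. The code was tested on simulated counts.

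The members and gene lists were chosen with earlier results of these data known. Named genes were the members, up to 3 genes per list with the largest difference at unadjusted p under 0.05, the 2 most abundant per list, partner chains of types I, III and V, the nearest profiles, and Smyca. VIL1, HNF4A, LGALS4, KRT8, KRT18, KRT19, EPCAM, CDH1, ESR1, FOXA1, GATA3, VIM, MSN, BNIP3, CA9 and the fibroblast genes come from the marker lists and were chosen after their values were seen. A gene that this rule also picks is not reported here.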

Additional observations from a re-analysis of the deposited data

How the results depend on the processing

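Over 13 alternatives, the 8 members tested gave 103 log2 fold changes. Of these, 94 kept their direction and stayed above an adjusted p of 0.05 (or had none by DESeq2), 7 kept their direction and passed it, and 2 changed sign, COL4A2 (0.0084 without knockdown repeat 1, in a range of -0.45 to 0.0084 with 1 library left out) and THBS1 (0.44 without knockdown repeat 3, in a range of -1.33 to 0.44). The number of DEGs among the members was 0 in 10 alternatives, 3 of 10 tested without a filter beyond 1 count (3.01% of all genes), 1 with DESeq2's Wald test (COL1A1) and 0 to 3 with 1 library left out. The number with an unadjusted p under 0.05 was 2, 5 of 10 without the filter (13.2% of all genes), 3 with total counts, where TNC entered, 1 with the reads recovered from the FPKM values of control repeat 2, 1 with the repeat number as a block, and 1 to 3 with 1 library left out. Groups without overlap numbered 2, and 2 to 6 with 1 library left out (4 without control repeat 3, 6 without knockdown repeat 3). Groups separate more easily with fewer libraries, and no share over all genes is given for those fits. Their counts therefore cannot be read against the 24.8% of all genes with 6 libraries. The block adjusts no CPM and gives no such count. The median log2 fold change of 0.33 was 0.79 without the filter, 0.90 with at least 10 counts in every library, where COL4A1 was no longer tested, and 0.15 to 0.81 with 1 library left out. The difference in the log2 ratio of COL4A2 to COL4A1 was 1.86 with the reads recovered from the FPKM values of control repeat 2, ranged from -0.70 to 1.38 with 1 library left out and turned to -0.70 without control repeat 3 and to -0.017 without knockdown repeat 2.

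Libraries with the same repeat number deviated from their group means with correlations of 0.0536, 0.0938 and 0.0207 over genes, so the block rests on a number only. It gave 0 DEGs among all genes against 4, and log2 fold changes of 1.22 for FN1, 1.03 for COL1A1, 1.43 for COL17A1, 1.24 for TNC, -0.56 for COL4A1, -0.18 for COL4A2, -0.40 for THBS1 and -0.30 for TGFBI. For the 5 gene lists, the alternatives were chosen after seeing the data. The genes at an unadjusted p under 0.05 ranged over them from 4 to 10 for collagen chains, 3 to 13 for synthesis and crosslinking, 3 to 9 for matricellular genes, 1 to 6 for receptors and 5 to 8 for proteases and inhibitors. The numbers tested ranged from 14 to 37, 25 to 28, 13 to 28, 14 to 22 and 14 to 27 in the same order. The share of all genes ranged from 10.8% to 29.6%, so that these counts are not comparable between alternatives. The median log2 fold changes of the lists ranged from 0.45 to 0.75, 0.12 to 0.40, 0.21 to 0.56, 0.083 to 0.29 and 0.26 to 0.73 in the same order. The causes of these changes were not tested. Depth limits COL4A1, COL5A1, SPARC and COL1A2, which had at most 22 counts in any library.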
